A study of Mus musculus with 12 samples.

Results

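The late expression change in mouse embryonic stem cells (mESCs) with floxed *Prdm10* was measured by comparing the 3 RNA-seq libraries titled Day4_OHT with the 3 titled Day4_EtOH, 6 of the 12 libraries in the series. The cells were C57BL/6 mESCs of genotype *Prdm10* F/F with Rosa26-CreERT2, a Cre recombinase that enters the nucleus when it binds 4-hydroxytamoxifen (OHT). They were kept with LIF and serum on gelatin, exposed for 24 h to 50 nM OHT or to the same volume of ethanol (EtOH), the vehicle, and harvested at Day 4. The labels give the genotype after OHT as *Prdm10* del/del. Cells of both groups came from cells with the floxed alleles and carried the Cre fusion. None of the 12 libraries came from OHT-treated cells without Cre, so an effect of OHT or of active Cre cannot be told apart from an effect of the deletion. The floxed segment holds exon 5 of the gene. The methods speak of independent biological repeats for experiments in general, but neither they nor the labels say for these libraries how many mESC lines were used or whether the 3 of a group came from separate cultures, so the p-values measure the spread between these libraries. Libraries held 37710829 to 41290734 expected counts. The first principal component of the Day 4 libraries held 77.2% of the variance and separated the labels, and the second held 9.6%.

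PRDM10 is a zinc finger protein of the PRDM family, whose members carry a domain related to the SET domain of histone methyltransferases. It binds DNA near the starts of genes and carries a glutamine-rich region of the kind that activates transcription. mESCs are derived from the inner cell mass of the blastocyst and divide fast.

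Whole-gene counts of the targeted gene were higher under the OHT label. *Prdm10* (ENSMUSG00000042496.18, chromosome 9, 31280538 to 31381723, plus strand, GRCm38) had normalised counts of 827, 884 and 919.6 in the libraries labelled EtOH and 1998, 2106 and 1976 in those labelled OHT. Every library labelled OHT lay above every library labelled EtOH (log2 fold change 1.21, SE 0.06, DESeq2 adjusted p = 4.18e-83). A whole-gene count does not show whether exon 5 is present, and no counts by exon were used here. The study assayed exon 5 by qRT-PCR and the protein by western blot, which are not analysed here. Directions below therefore refer to the labels, since these counts do not measure the loss of the exon. Markers of mESCs were high in both groups. In mean TPM, a measure of transcript abundance corrected for gene length and library size, and with EtOH given before OHT, *Dppa5a* stood at 1223 and 1436, *Pou5f1* at 460.3 and 439 and *Zfp42* at 56.6 and 54.1. By contrast, 20 fibroblast (feeder) markers summed to 6.76 to 8.07 TPM in the libraries labelled EtOH and 5.43 to 6.89 in those labelled OHT, and *Lum* was at 0 in every library labelled OHT.

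The sequences below are shown because PRDM10 binding is the property by which the Day 4 losses are later described. The wild-type (WT) and mutant (MUT) gel-shift probes of the study have 28 bases and differ at 8 of them, all between positions 10 and 20 counted from the 5′ end, the stretch in capitals.
WT probe: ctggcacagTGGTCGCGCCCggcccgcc
MUT probe: ctggcacagCAACCGCATTTggcccgcc
The wild-type stretch, TGGTCGCGCCC, was searched on both strands of RefSeq promoters on GRCm38.p6, each running from 250 bases before to 50 after a gene start. Of 32851 promoters, 259 (0.788%) held it with at most 1 mismatch. Counted by gene, these were 251 of 27025 (0.929%). Among bound genes tested here that had a promoter in the table, 14 of 338 (4.14%) held it, whatever their change. Of 76 PRDM10-bound genes that were over 2-fold lower at Day 4, 57 matched the table by symbol and 4 of these held such a match. They were *Srxn1*, *Map7d1*, *Hdac2* and *Mlst8*, each with 1 mismatch, and the 250 bases before their starts follow, 5′ to 3′ on the strand of the gene with the match in capitals. In *Srxn1* and *Map7d1* the match read on the opposite strand.
Srxn1 (chr2:152105274-152105523, plus strand): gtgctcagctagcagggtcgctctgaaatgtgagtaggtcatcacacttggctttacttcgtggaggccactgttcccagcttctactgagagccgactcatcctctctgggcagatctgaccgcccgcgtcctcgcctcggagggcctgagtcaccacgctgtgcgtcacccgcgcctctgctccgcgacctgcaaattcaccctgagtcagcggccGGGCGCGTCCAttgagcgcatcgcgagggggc
Map7d1 (chr4:126256305-126256554, minus strand): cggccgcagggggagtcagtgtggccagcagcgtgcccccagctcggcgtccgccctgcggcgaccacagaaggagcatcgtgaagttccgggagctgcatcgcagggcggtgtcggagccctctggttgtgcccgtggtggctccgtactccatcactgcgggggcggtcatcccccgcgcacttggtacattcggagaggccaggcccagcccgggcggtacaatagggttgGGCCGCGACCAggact
Hdac2 (chr10:36974294-36974543, plus strand): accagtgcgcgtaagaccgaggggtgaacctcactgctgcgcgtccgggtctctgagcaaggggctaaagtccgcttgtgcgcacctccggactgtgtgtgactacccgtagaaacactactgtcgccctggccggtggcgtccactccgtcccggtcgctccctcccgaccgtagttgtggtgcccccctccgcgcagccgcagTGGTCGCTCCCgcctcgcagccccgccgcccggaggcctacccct
Mlst8 (chr17:24479079-24479328, minus strand): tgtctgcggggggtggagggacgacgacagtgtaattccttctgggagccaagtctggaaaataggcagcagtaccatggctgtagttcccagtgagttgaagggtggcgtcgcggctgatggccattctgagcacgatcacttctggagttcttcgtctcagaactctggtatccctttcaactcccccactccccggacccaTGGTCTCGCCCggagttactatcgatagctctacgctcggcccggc
A match of these letters is a description and not a mapped site, and the other matched genes of this set had none in this window.

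Expression at Day 4 was altered in a large share of genes, mostly by a little. Of 11552 genes with a mean normalised count above 100, 23.6% were called higher and 21.7% lower at a DESeq2 adjusted p below 0.05. The called genes had a median absolute log2 fold change of 0.27, and 87.7% of them differed by less than 1.5-fold. The interquartile range of all genes tested ran from -0.14 to 0.16, around a median of 0.0061. EtOH and OHT libraries had no overlap in 62.9% of the genes tested. Genes called higher rose from 30.0% ± 0.16 (SD, n = 3) to 35.5% ± 0.142 (SD, n = 3) of all expected counts, a share that follows from how they were chosen.

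The extremes were uneven. Over 2-fold, 62 genes were higher (0.537% of those tested) and 110 lower (0.952%). Beyond 4-fold there were 40 lower, of which 37 were on the study's list of genes bound by PRDM10 in ChIP-seq. All 10 genes over 16-fold lower were on that list. It held 633 genes, came from another assay, and had 424 members tested here. Of these, 51.2% were called lower and 13.7% higher, while 17.9% were over 2-fold lower. The bound genes together fell from 3.81% ± 0.0245 (SD, n = 3) to 3.21% ± 0.00634 (SD, n = 3) of expected counts, with no overlap between the labels. The two-sided exact permutation p was 0.1, the smallest that this design allows.

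**Figure D1:**
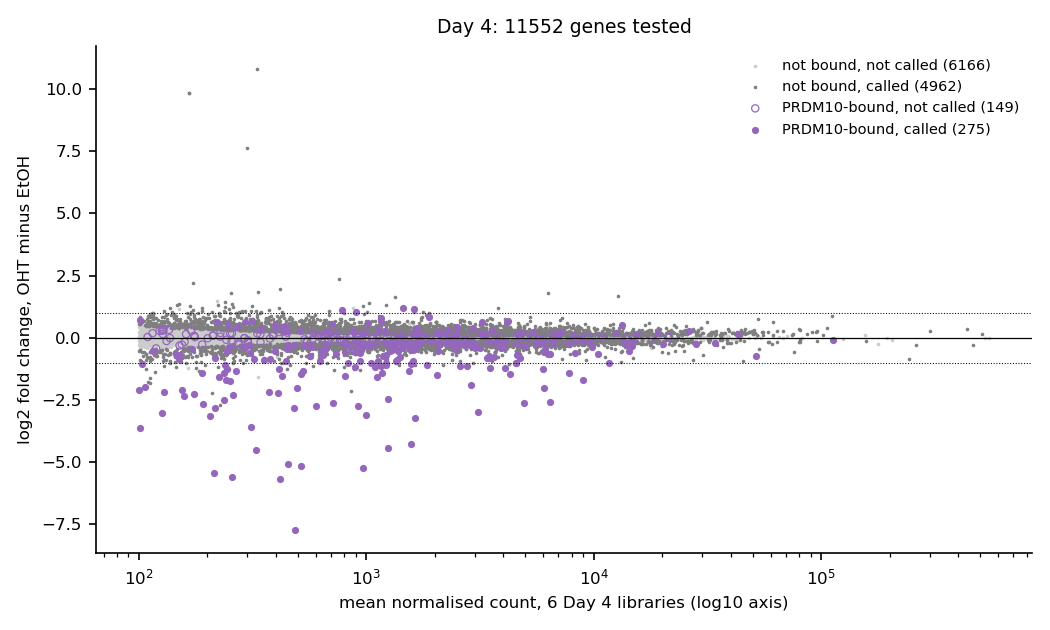
Log2 fold change at Day 4 (libraries labelled OHT minus those labelled EtOH) against the mean normalised count of the 6 libraries on a log10 axis, 1 point per gene tested. Purple points are PRDM10-bound genes, filled where called, and dotted lines mark 2-fold. The 275 called bound genes reach down to -7.74 (*Nmral1*) while the bulk of genes lies within 2-fold, and the 3 dots near the top are *Rnu3b1* with *Rnu3b2*, which coincide, *Rnu3b4* and *Exosc6*, all of uncertain count.

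The deepest losses were those of genes on the bound list. *Nmral1*, which encodes an NADPH-sensing regulator (chromosome 16, 4710059 to 4719356, minus strand), had 1008, 909 and 1000 in the libraries labelled EtOH and 2.98, 2.99 and 7.48 in those labelled OHT. No library labelled OHT exceeded 10 normalised counts, and 0.461% of the EtOH mean was left (log2 fold change -7.74, SE 0.40, DESeq2 adjusted p = 5.29e-83). *Galnt10*, an enzyme that starts mucin-type O-glycan chains, had 824, 829 and 802 in the libraries labelled EtOH and 14.9, 17.9 and 15 in those labelled OHT. All 3 libraries labelled OHT stood close together, at 1.95% of the EtOH mean (log2 fold change -5.68, SE 0.22, DESeq2 adjusted p = 3.69e-139). *Mpst*, a sulfurtransferase that can yield hydrogen sulfide from mercaptopyruvate, had 550.4, 492 and 477 in the libraries labelled EtOH and 9.95, 12 and 9.35 in those labelled OHT. The labels were far apart (log2 fold change -5.61, SE 0.28, DESeq2 adjusted p = 8.61e-87). Its neighbour *Tst*, which encodes the related enzyme rhodanese and was looked up after its value was seen, starts within 1 kb of it on the other strand and fell less (log2 fold change -1.53, SE 0.11, DESeq2 adjusted p = 2.93e-44).

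*Hap1*, a partner of huntingtin in vesicle transport, had 1829, 1870 and 1962 in the libraries labelled EtOH and 48.8, 52.8 and 49.6 in those labelled OHT. *Ankrd13a*, which binds ubiquitin chains on internalised receptors, started from a higher level and had 2978, 3052 and 2953 in the libraries labelled EtOH and 152, 157 and 159.9 in those labelled OHT. Neither gene overlapped between the labels, and their log2 fold changes were -5.23 (SE 0.13) and -4.26 (SE 0.08). *Madd*, an activator of Rab GTPases (-5.43, SE 0.29), *Adgrv1*, an adhesion receptor of the inner ear and retina (-5.16, SE 0.18), and *Sri*, a calcium-binding protein (-4.50, SE 0.19), also fell more than 16-fold. *Ptov1* (-4.42, SE 0.10), *Gng3*, a G protein gamma subunit (-3.62, SE 0.28), and *Ephb2*, an ephrin receptor (-3.61, SE 0.16), stood with *Selenow* among the 12 most negative values. *Gng3* had a mean just above the minimum of 100 and fell below it when any 1 of the EtOH libraries was left out, with log2 fold changes then between -3.73 and -3.54.

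**Figure D2:**
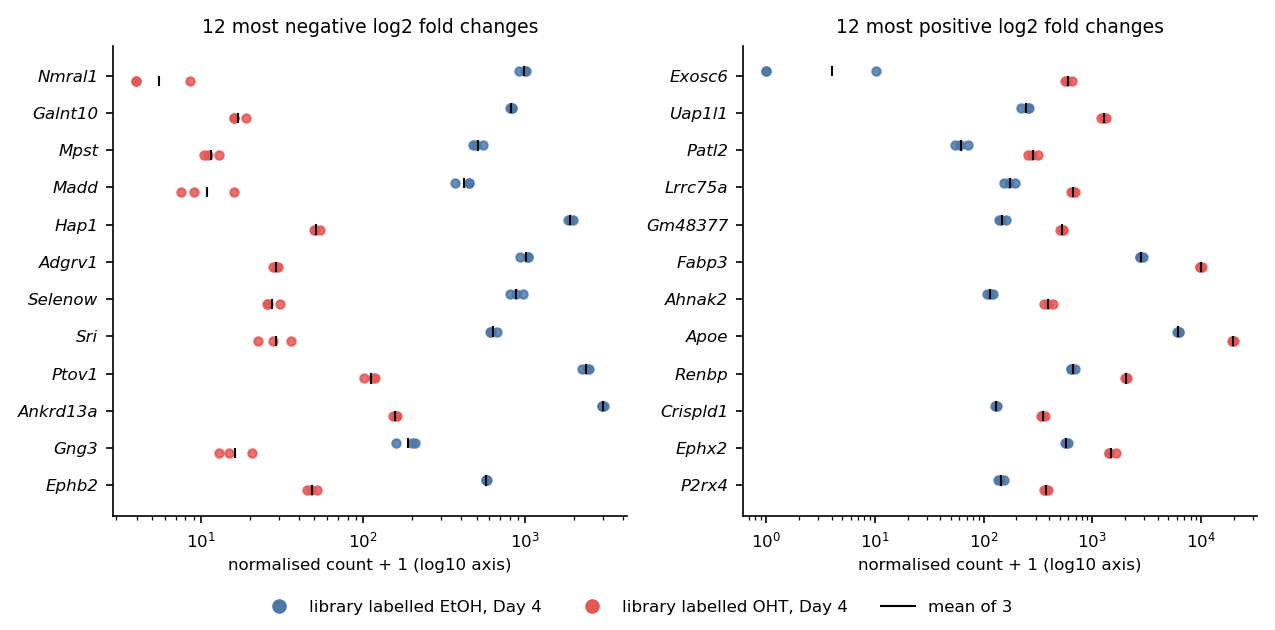
Normalised counts plus 1 (log10 axis) of the 12 genes with the most negative and the 12 with the most positive log2 fold changes among called genes whose libraries did not overlap, 1 point per Day 4 library and a bar at the mean of 3. *Nmral1* fell from a mean of 972 to 4.49, whereas the genes that rose gained 2.6-fold (*P2rx4*) to 5.17-fold (*Uap1l1*), *Exosc6* apart.

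The 76 bound genes over 2-fold lower kept a median of 25.9% of their EtOH mean, and 74 of them are protein-coding. Those named in this paragraph were picked for their known roles after their values were seen. *Srxn1*, which repairs overoxidised peroxiredoxins, had 852, 877 and 804 in the libraries labelled EtOH and 113, 118 and 130.0 in those labelled OHT. *Prdx2*, a peroxiredoxin itself, had 10100, 9684 and 9392 in the libraries labelled EtOH and 2361, 2430 and 2369 in those labelled OHT. Both genes were clearly separated by label (-2.81, SE 0.11, and -2.03, SE 0.04). In metabolism, *Dlst*, a core subunit of the 2-oxoglutarate dehydrogenase complex, had -1.91 (SE 0.05), *Dgat2*, which makes triglycerides, -1.43 (SE 0.16) and *Cdipt*, which makes phosphatidylinositol, -1.55 (SE 0.08). *Dut*, which destroys dUTP and so keeps uracil out of DNA, had 8908, 8490 and 8227 in the libraries labelled EtOH and 1323, 1426 and 1413 in those labelled OHT. All libraries labelled OHT lay far below (log2 fold change -2.62, SE 0.05, with a DESeq2 adjusted p below the smallest number the software holds).

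The bound genes of this paragraph were also chosen after their values were seen. *Uchl1*, a deubiquitinating enzyme abundant in neurons, had 3074, 2864 and 2912 in the libraries labelled EtOH and 328, 295 and 334 in those labelled OHT. *Stmn2*, a microtubule regulator, had 5702, 5337 and 5428 in the libraries labelled EtOH and 673, 709 and 676 in those labelled OHT. The log2 fold changes were -3.21 (SE 0.07) and -3.00 (SE 0.05), and neither gene overlapped between the labels. *Robo1* (-2.17, SE 0.12) and *Plxna3* (-1.35, SE 0.13), receptors of axon guidance, *Wasf1* (-2.18, SE 0.20), an activator of actin branching, and *Prph* (-1.41, SE 0.14), a neuronal intermediate filament, were lower too. Among regulators of chromatin and transcription, *Hdac2*, a histone deacetylase, had -1.47 (SE 0.05), *Psip1*, a reader of methylated histone H3, had -2.57 (SE 0.05) and *Polr1a*, the catalytic subunit of RNA polymerase I, had -1.27 (SE 0.04).

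Rises were smaller, apart from genes of uncertain count. Of the 62 genes over 2-fold higher, 4 were bound, *Prdm10* itself among them. That is 0.943% of the bound genes tested and compares with 0.521% of the other genes. *Uap1l1*, related to the enzyme that makes UDP-N-acetylglucosamine, had 259, 221 and 256 in the libraries labelled EtOH and 1204, 1326 and 1275 in those labelled OHT, a 5.17-fold rise. *Renbp*, which interconverts N-acetylglucosamine and N-acetylmannosamine, had 697, 634 and 636 in the libraries labelled EtOH and 2033, 1981 and 2082 in those labelled OHT. The labels did not overlap for either gene (2.37, SE 0.09, and 1.63, SE 0.06). *Patl2*, an RNA-binding protein of oocytes, had 59.3, 70.8 and 54.1 in the libraries labelled EtOH and 256, 317 and 278 in those labelled OHT. All libraries labelled OHT lay above 200 counts (log2 fold change 2.21, SE 0.18, DESeq2 adjusted p = 2.16e-33). *Lrrc75a* (1.95, SE 0.11), *Gm48377* (1.83, SE 0.12), *Ahnak2* (1.79, SE 0.14), *Crispld1* (1.43, SE 0.14), *Ephx2*, an epoxide hydrolase of lipid mediators (1.39, SE 0.08), and *P2rx4*, an ATP-gated channel found on lysosomes (1.38, SE 0.13), rose as well. The antisense transcript *Lrrc75aos2*, a bound gene picked after its value was seen, lies inside *Lrrc75a* on the other strand and moved the opposite way (-1.74, SE 0.14). The libraries were stranded, but whether the counting used strand is not given in the sources used here.

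The genes with the largest positive values are uncertain. *Exosc6* (chromosome 8, 111056339 to 111057664, plus strand) had 0, 0 and 9.19 in the libraries labelled EtOH and 588, 645 and 561 in those labelled OHT, but it lies wholly within the end of *Aars* on the same strand. Its posterior SD, the uncertainty RSEM gives for dividing reads between genes that share them, exceeded the count in at least 1 library. The small nucleolar RNAs *Rnu3b1*, *Rnu3b2* and *Rnu3b4*, named after their values were seen, each occur under a pair of identifiers at the same place. The identifiers that rose had 1.02 normalised counts or fewer in each library labelled EtOH, and a posterior SD above the count in at least 1 library. Reads of these copies could be moved between identifiers by the quantification, so no fold change is given for them.

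**Figure D3:**
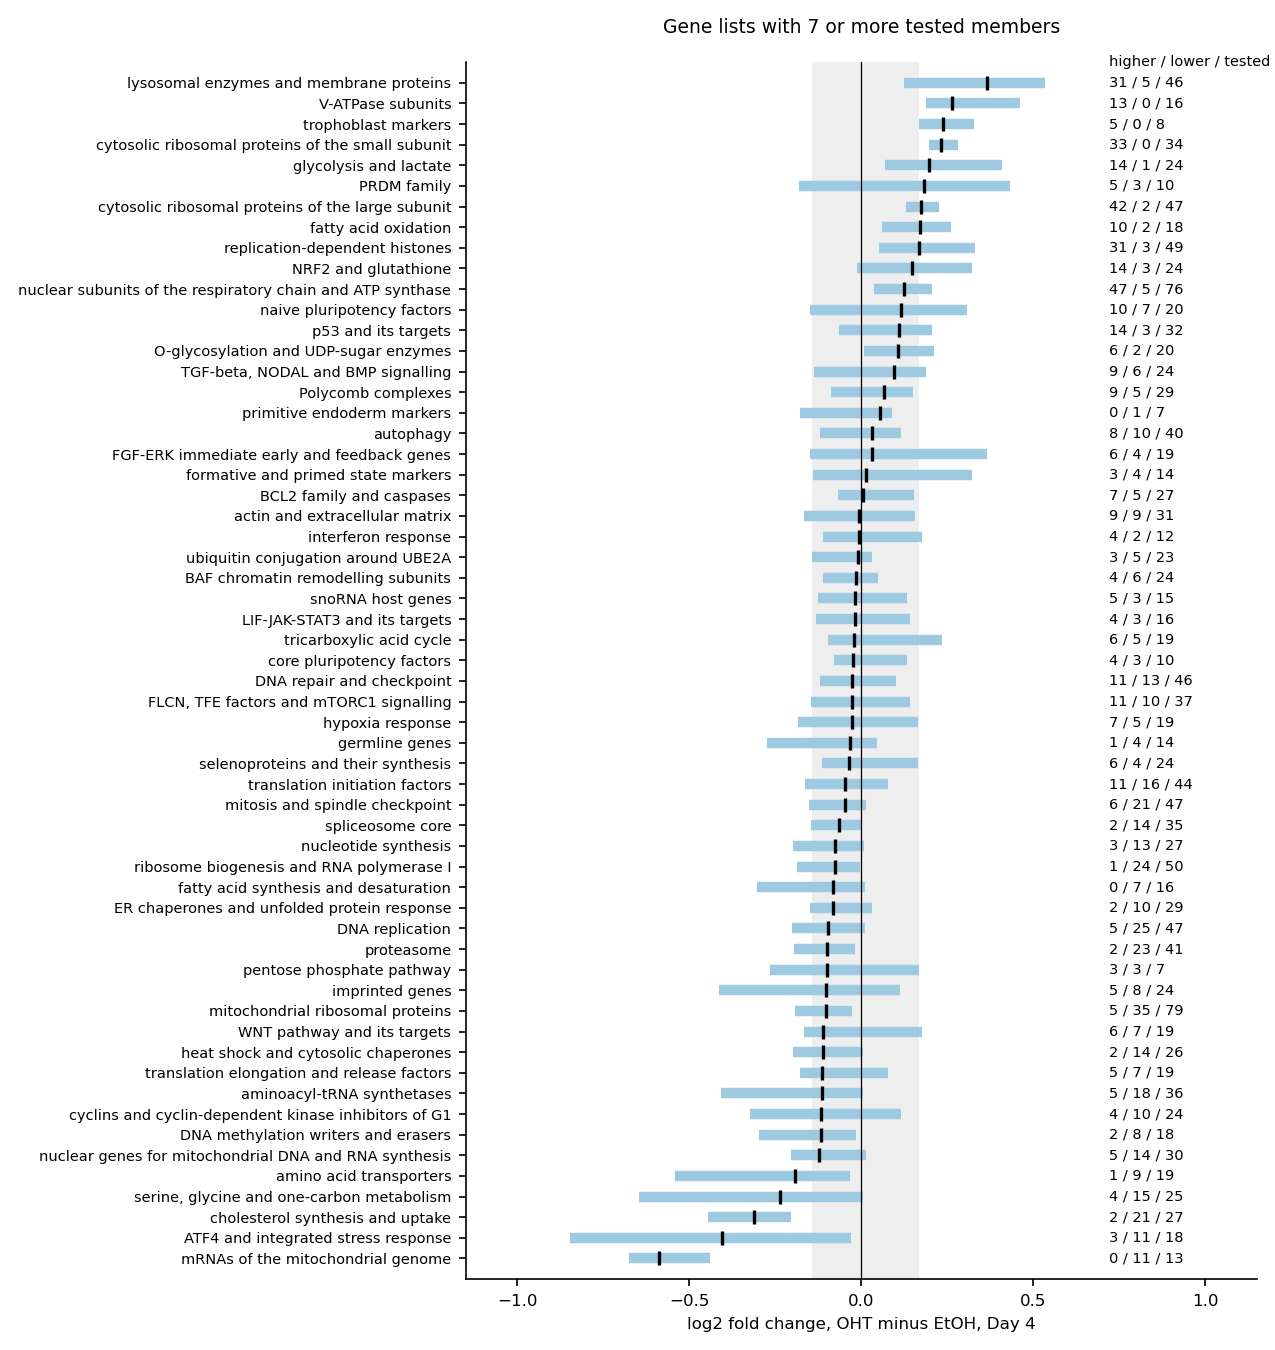
Median (black tick) and interquartile range (blue bar) of Day 4 log2 fold changes for the 58 gene lists with 7 or more members tested, ordered by median, with the interquartile range of all genes tested in grey. Figures at the right give members called higher, called lower and tested. Mitochondrially encoded mRNAs lie at the bottom and lysosomal genes at the top.

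Genes of the amino acid response were lower. ATF4 is a transcription factor whose translation rises when the initiation factor eIF2 is phosphorylated, and it switches on genes for amino acid synthesis, uptake and tRNA charging. Of its list, 3 of 18 tested were called higher and 11 lower, with a median log2 fold change of -0.40 against 0.0061 over all genes tested. *Chac1*, which degrades glutathione, had 401, 395 and 394 in the libraries labelled EtOH and 63.7, 60.8 and 58 in those labelled OHT. *Nupr1*, a stress-induced chromatin protein, had 345, 342 and 355 in the libraries labelled EtOH and 69.7, 75.7 and 75.8 in those labelled OHT. Neither is on the bound list, and both fell over 4-fold with no overlap between the labels (-2.71, SE 0.16, and -2.24, SE 0.15). *Trib3*, a pseudokinase that feeds back on ATF4, had -1.17 (SE 0.08). *Atf4* itself had 10550, 10450 and 10370 in the libraries labelled EtOH and 6940, 6905 and 6689 in those labelled OHT. Its libraries did not overlap (log2 fold change -0.61, SE 0.03, DESeq2 adjusted p = 1.63e-79). *Ppp1r15a*, the eIF2 phosphatase subunit, rose (0.26, SE 0.07). *Ddit3*, which encodes CHOP, had 0.40 (SE 0.15), but its call was lost when any 1 of the 6 libraries was left out (DESeq2 adjusted p up to 0.102).

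Of the serine, glycine and one-carbon list, 4 of 25 tested were called higher and 15 lower (median -0.24). *Psat1* (-0.97, SE 0.03), *Psph* (-0.85, SE 0.06) and *Phgdh* (-0.41, SE 0.03), which together make serine, were all lower. *Mthfd2*, a mitochondrial folate enzyme, had 5729, 5793 and 5633 in the libraries labelled EtOH and 2699, 2884 and 2722 in those labelled OHT. It fell about 2-fold with no overlap between the labels (log2 fold change -1.05, SE 0.04, DESeq2 adjusted p = 4.36e-143). The glycine cleavage genes *Gldc* (0.35, SE 0.04) and *Amt* (0.53, SE 0.04) rose instead. Among amino acid transporters, 1 of 19 tested was called higher and 9 lower (median -0.19). *Slc1a4*, a carrier of neutral amino acids, had -1.26 (SE 0.07), *Slc7a1*, the carrier of arginine and lysine, -1.11 (SE 0.06) and *Slc7a5*, the leucine exchanger, -0.61 (SE 0.04). Of the aminoacyl-tRNA synthetase list, 5 of 36 tested were called higher and 18 lower (median -0.12). Cytosolic synthetases led by *Nars* (-0.77, SE 0.03) and *Cars* (-0.71, SE 0.04) fell, while *Vars* (0.23, SE 0.04) and *Qars* (0.18, SE 0.03) rose.

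Genes of endoplasmic reticulum chaperones and the unfolded protein response showed a narrower pattern, in which 2 of 29 tested were called higher and 10 lower (median -0.083). *Herpud1*, of the degradation machinery, had -1.28 (SE 0.08), *Syvn1*, a bound gene for the ubiquitin ligase of that machinery, -0.83 (SE 0.14) and *Xbp1* -0.43 (SE 0.04). *Hspa5*, the main chaperone, had -0.14 (SE 0.03). Of the 34 unbound genes over 2-fold lower, 8 belonged to the 5 lists of amino acid, tRNA charging and endoplasmic reticulum genes above. In the order given, those lists had 18, 25, 19, 36 and 29 of the 11552 genes tested, and members may recur between them. The lists were written with earlier results of these data known, so this count describes and tests nothing. None of the 76 bound genes over 2-fold lower belonged to the 5 lists, but these lists held few bound genes. The serine, synthetase and endoplasmic reticulum lists each had 1 bound member tested, and the ATF4 and transporter lists had 0. These counts therefore cannot show whether bound and unbound genes differ in this respect.

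Lysosomal genes were higher. FLCN is the GTPase activator that lets mTORC1 phosphorylate the transcription factors TFEB and TFE3, which otherwise drive lysosomal genes. *Flcn*, a bound gene, had 1753, 1781 and 1836 in the libraries labelled EtOH and 207, 199 and 215 in those labelled OHT. About 11.6% of the EtOH mean remained (log2 fold change -3.11, SE 0.08, with a DESeq2 adjusted p below the smallest number the software holds). *Mlst8*, also bound and a shared subunit of the mTOR complexes, whose promoter is shown above, had 664, 683 and 679 in the libraries labelled EtOH and 167, 132 and 140.3 in those labelled OHT. The labels were well separated (log2 fold change -2.21, SE 0.11, DESeq2 adjusted p = 1.06e-80). Of the whole list of FLCN, TFE and mTORC1 genes, 11 of 37 tested were called higher and 10 lower (median -0.028). These shares, 29.7% and 27.0%, lay not far above the 23.6% and 21.7% of all genes tested. The FLCN partner *Fnip1* (0.61, SE 0.04) and the GTPase gene *Rragd* (0.64, SE 0.06) rose, while *Mitf* (-0.57, SE 0.05) and *Tfeb* (-0.37, SE 0.10) were lower. Any link between the fall of *Flcn* and the lysosomal genes was not tested.

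Of the lysosomal enzymes and membrane proteins, 31 of 46 tested were called higher and 5 lower, with a median of 0.37. *Hexa*, a subunit of the hexosaminidase that degrades gangliosides, had 700.2, 707 and 689.9 in the libraries labelled EtOH and 1805, 1764 and 1649 in those labelled OHT. *Grn*, the progranulin gene, had 1156, 1088 and 1281 in the libraries labelled EtOH and 2345, 2310 and 2490 in those labelled OHT. Both rose over 2-fold with no overlap between the labels (1.31, SE 0.07, and 1.02, SE 0.06). The proteases *Ctsl* (0.85, SE 0.04) and *Ctsa* (0.82, SE 0.06), the sialidase *Neu1* (0.72, SE 0.09) and the membrane protein *Lamp1* (0.33, SE 0.03) rose less. *Asah1*, acid ceramidase and a bound gene, fell (-0.83, SE 0.04). Of the V-ATPase subunits, which acidify the lysosome, 13 of 16 tested were called higher and the rest were not called (median 0.26), led by *Atp6ap1* (0.69, SE 0.06). Of autophagy genes, 8 of 40 tested were called higher and 10 lower, shares near the 23.6% and 21.7% of all genes tested. Their median of 0.032 turned to -0.0044 with effective lengths in the fit. Among them *Wdr45* (0.56, SE 0.08) and *Wipi1* (0.52, SE 0.14) rose and *Atg101*, a bound gene, fell (-0.50, SE 0.06).

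**Figure D4:**
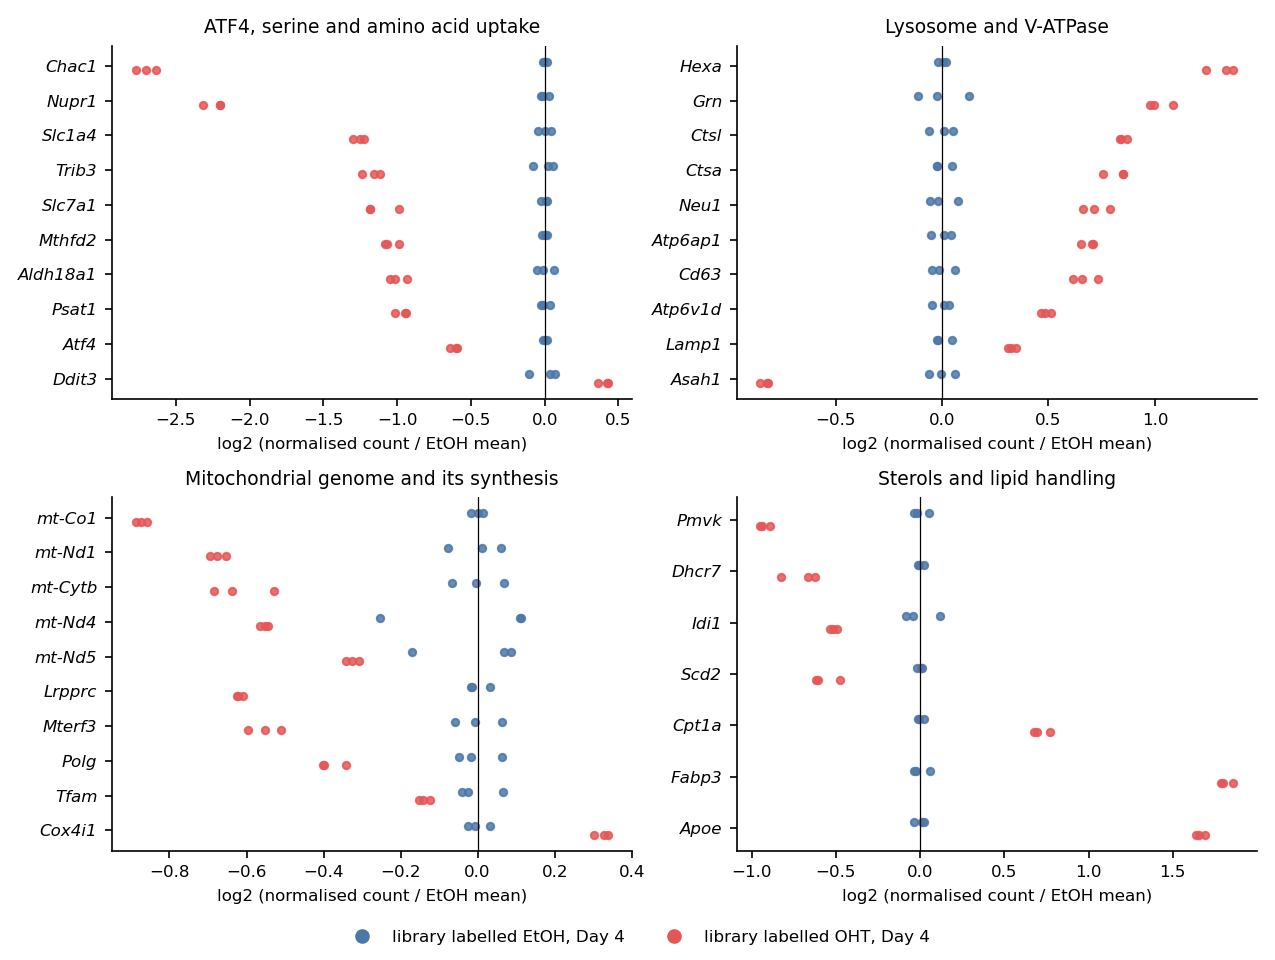
Log2 ratio of each Day 4 library's normalised count to the mean of the 3 libraries labelled EtOH, for members of 4 groups of pathways. Blue points are libraries labelled EtOH and red points those labelled OHT. *Chac1*, *Nupr1* and mitochondrial mRNAs lie to the left and *Hexa*, *Grn* and *Apoe* to the right, whereas *Ddit3*, *Asah1* and *Cox4i1* go against the rest of their panels.

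Transcripts of the mitochondrial genome and nuclear genes for the respiratory chain moved apart. Of the mRNAs encoded in mitochondria, 11 of 13 tested were called lower and the rest were not called, with a median log2 fold change of -0.59. Their share of expected counts was 1.3, 1.36 and 1.31% in the libraries labelled EtOH and 0.771, 0.827 and 0.779% in those labelled OHT. *mt-Co1*, the catalytic subunit of cytochrome oxidase, had -0.87 (SE 0.02), *mt-Nd1* of complex I -0.67 (SE 0.03) and *mt-Cytb* of complex III -0.61 (SE 0.04). Copies of mitochondrial genes in the nucleus share reads with them, and *mt-Co2* (0.60, SE 0.38, not called) had a posterior SD above its count in at least 1 library. *mt-Atp6* (-0.82, SE 0.26) lost its call without EtOH replicate 2 or OHT replicate 1 or 3 (DESeq2 adjusted p from 0.0525 to 0.0562). Fewer mitochondrial genomes and less RNA from each cannot be told apart in these data.

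By contrast, of the nuclear genes for the respiratory chain and ATP synthase, 47 of 76 tested were called higher and 5 lower (median 0.12). *Cox4i1* (0.32, SE 0.03) and *Ndufb9* (0.31, SE 0.04) rose, while *Sdhd* (-0.32, SE 0.05) and the bound genes *Uqcrq* (-0.26, SE 0.05) and *Uqcrh* (-0.26, SE 0.04) fell. Of the nuclear genes for mitochondrial DNA and RNA synthesis, 5 of 30 tested were called higher and 14 lower (median -0.12). The bound genes *Lrpprc* (-0.62, SE 0.03), which stabilises mitochondrial mRNAs, *Mterf3* (-0.55, SE 0.07) and *Polg* (-0.38, SE 0.05), the mitochondrial DNA polymerase, had the most negative values of that list. *Tfam*, which packages mitochondrial DNA, had -0.14 (SE 0.04). Among mitochondrial ribosomal proteins, 5 of 79 tested were called higher and 35 lower (median -0.10), led by the bound gene *Dap3* (-0.83, SE 0.04).

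Cytosolic ribosomal protein genes were slightly higher, with few exceptions. For the large subunit, 42 of 47 tested were called higher and 2 lower (median 0.17), and for the small subunit, 33 of 34 tested were called higher and the rest were not called (median 0.23). Together they took 6.83% ± 0.114 (SD, n = 3) of expected counts under the EtOH label and 7.77% ± 0.0916 (SD, n = 3) under the OHT label. *Rpl19*, a bound gene, stood apart with 66290, 63600 and 64600 in the libraries labelled EtOH and 39430, 39500 and 37960 in those labelled OHT. It was lower in every library labelled OHT (log2 fold change -0.73, SE 0.03, DESeq2 adjusted p = 2.80e-148). Processed pseudogenes of these genes may share their reads. Elongation factors did not move together, since 5 of 19 tested were called higher and 7 lower (median -0.11). Those shares, 26.3% and 36.8%, compare with 23.6% and 21.7% of all genes tested. *Eef1d*, a bound exchange factor gene, had 14060, 13640 and 13600 in the libraries labelled EtOH and 4173, 4300 and 4145 in those labelled OHT. It fell over 3-fold (-1.71, SE 0.03), while *Eef2* (0.39, SE 0.03) and *Eef1a1* (0.37, SE 0.03) rose.

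Of the translation initiation factors, 11 of 44 tested were called higher and 16 lower (median -0.049). The bound gene *Eif3b*, a scaffold subunit of eIF3, had 16000, 14870 and 16030 in the libraries labelled EtOH and 7893, 7571 and 7761 in those labelled OHT. Its labels did not overlap (log2 fold change -1.01, SE 0.04, DESeq2 adjusted p = 7.79e-171). *Eif4ebp1*, an inhibitor of cap binding, had -0.45 (SE 0.03), and *Eif4g3* rose (0.63, SE 0.07). Of ribosome biogenesis and RNA polymerase I genes, 1 of 50 tested was called higher and 24 lower (median -0.077), with *Polr1a* the farthest from 0 and *Nop16* next (-0.50, SE 0.05). Among snoRNA host genes, 5 of 15 tested were called higher and 3 lower (33.3% and 20.0%, median -0.018). The bound host *Epb41l4aos* had -1.27 (SE 0.11) and *Snhg8* -0.51 (SE 0.06).

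Sterol genes were lower. Of the cholesterol list, most of which answers to the sterol sensor SREBP2, 2 of 27 tested were called higher and 21 lower, with a median of -0.31. *Dhcr7*, which makes the last step to cholesterol, had 776, 758 and 759 in the libraries labelled EtOH and 431, 482 and 497 in those labelled OHT. The labels did not overlap (log2 fold change -0.70, SE 0.09, DESeq2 adjusted p = 7.84e-15). The bound gene *Pmvk* also fell (-0.93, SE 0.06). *Apoe*, which carries cholesterol out of cells, had 6262, 6012 and 6206 in the libraries labelled EtOH and 19420, 19860 and 19200 in those labelled OHT. It rose over 3-fold with no overlap (1.66, SE 0.03). Of the fatty acid synthesis list, 7 of 16 tested were called lower and the rest were not called (median -0.082), led by the desaturases *Scd2* (-0.56, SE 0.04) and *Scd1* (-0.40, SE 0.05).

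Fatty acid oxidation genes went the other way, since 10 of 18 tested were called higher and 2 lower (median 0.17). *Cpt1a*, which admits fatty acids to mitochondria, had 1313, 1342 and 1316 in the libraries labelled EtOH and 2142, 2117 and 2256 in those labelled OHT. It was higher in every library labelled OHT (log2 fold change 0.71, SE 0.05, DESeq2 adjusted p = 5.33e-38). *Fabp3*, a fatty acid binding protein of heart muscle, had 2916, 2733 and 2759 in the libraries labelled EtOH and 9730, 10170 and 9681 in those labelled OHT. Its rise was 3.52-fold (1.81, SE 0.04).

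In central carbon metabolism, glycolytic genes were mainly higher. Of that list, 14 of 24 tested were called higher and 1 lower (median 0.20). *Slc2a3*, a glucose transporter, had 39200, 38900 and 39360 in the libraries labelled EtOH and 67100, 65950 and 67160 in those labelled OHT. The labels did not overlap (log2 fold change 0.77, SE 0.02, DESeq2 adjusted p = 6.51e-220). *Aldoa* (0.61, SE 0.03) and *Pfkl* (0.60, SE 0.04) also rose, and *Pfkp*, another phosphofructokinase gene, fell (-0.90, SE 0.04). Of the tricarboxylic acid cycle genes, 6 of 19 tested were called higher and 5 lower (median -0.022). Shares for the cycle were 31.6% and 26.3%, against 23.6% and 21.7% of all genes tested. *Idh2* rose (0.72, SE 0.04) against the fall of *Dlst*. Of the pentose phosphate genes, 3 of 7 tested were called higher and 3 lower (median -0.10), among them *Pgd* (-0.35, SE 0.04). Of the nucleotide synthesis genes, 3 of 27 tested were called higher and 13 lower (median -0.076), where *Prps2* (-0.43, SE 0.07) followed *Dut* and *Cad* rose (0.29, SE 0.04).

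Cell cycle genes were lower by small amounts. Of the replication list, 5 of 47 tested were called higher and 25 lower (median -0.10), among them the bound gene *Mcm4* (-0.53, SE 0.03) and *Pcna* (-0.26, SE 0.04), while *Pold1* rose (0.25, SE 0.04). Of the mitosis list, 6 of 47 tested were called higher and 21 lower (median -0.049). The bound gene *Cenpn*, of the kinetochore, had 2205, 2154 and 2029 in the libraries labelled EtOH and 1037, 991 and 1015 in those labelled OHT. It was about 2-fold lower (log2 fold change -1.07, SE 0.06, DESeq2 adjusted p = 4.09e-73), and *Bub1* was higher (0.40, SE 0.03). Of the G1 list, 4 of 24 tested were called higher and 10 lower (median -0.12). *Ccnd2*, a D-type cyclin and not bound, had 1374, 1406 and 1388 in the libraries labelled EtOH and 344, 296 and 312 in those labelled OHT. It fell over 4-fold with no overlap (log2 fold change -2.13, SE 0.08, DESeq2 adjusted p = 2.86e-153). *Mycn* (-0.46, SE 0.04) and *Myc* (-0.36, SE 0.07) were lower and *Cdk4* higher (0.27, SE 0.03).

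Replication-dependent histone genes were mainly higher, in that 31 of 49 tested were called higher and 3 lower (median 0.17). Their mRNAs lack a poly(A) tail, and the libraries were made from total RNA. Near-identical copies in the clusters share reads, so single members are uncertain. Of the p53 list, 14 of 32 tested were called higher and 3 lower (median 0.11). *Ccng2* (0.46, SE 0.10) and *Mdm2* (0.21, SE 0.04) rose, *Zmat3* fell (-0.47, SE 0.08) and *Cdkn1a*, the p21 gene, was not called (-0.12, SE 0.14, DESeq2 adjusted p = 0.56). Of the BCL2 family and caspases, 7 of 27 tested were called higher and 5 lower, shares near those of all genes tested. Their median of 0.0034 changed sign under some scalings. *Bak1* (-0.28, SE 0.06) was lower and *Birc2* higher (0.27, SE 0.05). Of DNA repair and checkpoint genes, 11 of 46 tested were called higher and 13 lower (median -0.028), also near the shares of all genes tested. The bound genes *Fanci* (-0.40, SE 0.04) and *Prkdc* (0.32, SE 0.06) moved in opposite directions.

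Pluripotency genes shifted in both directions, the core factors by -0.21 to 0.18 and the naive factors by -0.68 to 0.64. Of the core factors, 4 of 10 tested were called higher and 3 lower (median -0.025). *Pou5f1*, the gene of OCT4, had 24710, 24360 and 23400 in the libraries labelled EtOH and 23530, 23440 and 23530 in those labelled OHT. The libraries overlapped and it was not called (log2 fold change -0.04, SE 0.03, DESeq2 adjusted p = 0.304). *Nanog* (0.18, SE 0.03), *Sox2* (0.16, SE 0.03) and *Tdgf1* (0.13, SE 0.03) rose and *Utf1* fell (-0.21, SE 0.04). Of the naive factors, 10 of 20 tested were called higher and 7 lower (median 0.12). *Nr0b1* (0.64, SE 0.04), *Esrrb* (0.40, SE 0.03) and *Klf4* (0.31, SE 0.04) rose, whereas *Gbx2* (-0.68, SE 0.08) and *Klf5* (-0.33, SE 0.07) fell. Of the formative and primed markers, 3 of 14 tested were called higher and 4 lower (median 0.013). Their shares, 21.4% and 28.6%, compare with 23.6% and 21.7% of all genes tested. *Dnmt3a* (-0.64, SE 0.03) and *Lefty1* (-0.38, SE 0.04) were lower and *Lefty2* higher (0.43, SE 0.03).

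Markers of other cells that the culture could hold differed in level. Of 22 germ layer markers, 3 were abundant enough to test, and 1 of 3 tested was called higher and 2 lower (median -0.29). The whole list summed to 72.4 to 77.5 TPM in the libraries labelled EtOH and 46.9 to 49.4 in those labelled OHT, mostly from *Tubb3* (-0.79, SE 0.04), which had 4901, 4850 and 4710 in the libraries labelled EtOH and 2843, 2731 and 2793 in those labelled OHT. Of the primitive endoderm markers, 1 of 7 tested was called lower and the rest were not called (median 0.054), namely *Lamb1* (-0.33, SE 0.04), and the whole list of 15 summed to 131 to 141 TPM in the libraries labelled EtOH and 121 to 129 in those labelled OHT. Of the trophoblast markers, 5 of 8 tested were called higher and the rest were not called (median 0.24). Their sum was 59.1 to 61.4 TPM in the libraries labelled EtOH and 69.7 to 71.9 in those labelled OHT, and the defining *Cdx2* stood at 0.09 and 0.08 TPM. The members that rose, such as *Tead4* (0.36, SE 0.10) and *Tfap2c* (0.32, SE 0.04), were present in both groups. Both tested fibroblast markers, *Fbn1* and *Col5a1*, were not called (0.04 and 0.25, list median 0.14). Of the 2-cell-like list, *Eif1a* alone was testable (0.14, SE 0.04, so that it is also the list median), and *Zscan4c* stood at 0.497 and 0.28 TPM. No marker of these 5 lists was at 0 in every library. Of the germline genes, 1 of 14 tested was called higher and 4 lower (median -0.033), among them *Dazl* (-0.60, SE 0.08) and *Sycp3* (0.55, SE 0.13). Fewer cells of a type and less RNA per cell cannot be told apart in bulk samples, and the part of either in the other results was not tested.

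Among chromatin genes, those of DNA methylation were mainly lower, in that 2 of 18 tested were called higher and 8 lower (median -0.12). The bound gene *Dnmt1*, the maintenance methyltransferase, had 12780, 12870 and 12800 in the libraries labelled EtOH and 8128, 8163 and 8240 in those labelled OHT. No libraries overlapped (log2 fold change -0.65, SE 0.03, DESeq2 adjusted p = 3.12e-106). *Tet1*, which oxidises methylcytosine, had -0.53 (SE 0.14), *Dnmt3b* -0.48 (SE 0.04) and the cofactor gene *Dnmt3l* rose (0.55, SE 0.04). Of the imprinted genes, 5 of 24 tested were called higher and 8 lower (20.8% and 33.3%, median -0.10). They ran from *Grb10* (-1.08, SE 0.06) and *H19* (-0.52, SE 0.07) to *Peg12* (0.79, SE 0.10). Of the Polycomb list, 9 of 29 tested were called higher and 5 lower (31.0% and 17.2%, median 0.067, or 0.02 without OHT replicate 3). *Bmi1*, a subunit of the first repressive complex, had 229.9, 229 and 222 in the libraries labelled EtOH and 426, 474 and 469.5 in those labelled OHT. It was the member of the list over 2-fold (log2 fold change 1.01, SE 0.11, DESeq2 adjusted p = 1.12e-17). Of the BAF subunits, 4 of 24 tested were called higher and 6 lower (median -0.014), shares near the 23.6% and 21.7% of all genes tested. The bound paralogues *Ss18* (-1.23, SE 0.04) and *Ss18l1* (-1.10, SE 0.13) both fell over 2-fold. Of the PRDM family, 5 of 10 tested were called higher and 3 lower (median 0.18), including *Prdm14* (0.25, SE 0.07) and *Prdm4* (-0.26, SE 0.05).

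Signalling lists were mixed, to be read beside the 23.6% called higher and 21.7% called lower of all genes tested. Of the FGF-ERK genes, 6 of 19 tested were called higher and 4 lower (31.6% and 21.1%, median 0.03). *Egr1*, an immediate early gene, had 152, 139 and 165 in the libraries labelled EtOH and 57.7, 61.8 and 71.1 in those labelled OHT. It fell over 2-fold (log2 fold change -1.26, SE 0.20, DESeq2 adjusted p = 4.92e-09), though its mean slipped under 100 without EtOH replicate 1 or 3 (log2 fold changes -1.26 and -1.19). The feedback phosphatases *Dusp4* (0.95, SE 0.07) and *Dusp6* (0.66, SE 0.04) rose. Of the WNT list, 6 of 19 tested were called higher and 7 lower (median -0.11), with *Notum*, a secreted WNT inhibitor (-1.24, SE 0.10), lower and *Porcn* higher (0.57, SE 0.08). Of the TGF-beta, NODAL and BMP list, 9 of 24 tested were called higher and 6 lower (median 0.10), where *Id1* fell (-0.59, SE 0.08) and *Lefty2* was among the members that rose. Of the LIF-STAT3 list, 4 of 16 tested were called higher and 3 lower (median -0.019), shares near those of all genes tested. *Socs2* (0.68, SE 0.04), a bound gene, rose. Of the hypoxia list, 7 of 19 tested were called higher and 5 lower (median -0.029), from *Epas1* (-0.51, SE 0.08) to *P4ha2* (0.59, SE 0.09). Of the interferon list, 4 of 12 tested were called higher and 2 lower (median -0.0076).

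Proteasome and heat shock genes were mainly lower, by small steps. Of the proteasome list, 2 of 41 tested were called higher and 23 lower (median -0.10), led by the bound gene *Psma7* (-0.46, SE 0.04). Of the heat shock list, 2 of 26 tested were called higher and 14 lower (median -0.11), with *Hsph1* (-0.34, SE 0.04) and *Hspa8* (-0.29, SE 0.03) lower and *Hspb1* higher (0.49, SE 0.03). Of the ubiquitin conjugation list, 3 of 23 tested were called higher and 5 lower, a share lower that is near the 21.7% of all genes tested, and the median of -0.0091 changed sign on leaving out a library. The bound gene *Ube2a* had 1740, 1638 and 1609 in the libraries labelled EtOH and 807, 804 and 750.1 in those labelled OHT. It fell about 2-fold (-1.08, SE 0.06), while its paralogue *Ube2b*, also bound, had 0.15 (SE 0.05), a call that was lost without EtOH replicate 2 or 3 or OHT replicate 2 (DESeq2 adjusted p up to 0.13). Of the spliceosome core, 2 of 35 tested were called higher and 14 lower (median -0.064), among them *Sf3a1* (-0.41, SE 0.03).

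Of the NRF2 and glutathione list, 14 of 24 tested were called higher and 3 lower (median 0.15). *Ftl1* (0.64, SE 0.03), a ferritin subunit, and *Gpx4* (0.54, SE 0.03), which reduces lipid peroxides, rose against the fall of *Srxn1*. Of the selenoprotein list, 6 of 24 tested were called higher and 4 lower (median -0.037), shares near those of all genes tested. *Selenow*, a small redox protein and a bound gene, had 959, 869.7 and 802 in the libraries labelled EtOH and 29.9, 24.9 and 24.3 in those labelled OHT. It kept 3% of its EtOH mean (log2 fold change -5.06, SE 0.19, DESeq2 adjusted p = 1.55e-160). *Selenop*, the secreted selenium carrier and also bound, had -2.31 (SE 0.14). Of the O-glycosylation and UDP-sugar list, 6 of 20 tested were called higher and 2 lower (median 0.11), with the family of *Galnt10* otherwise between 0.055 and 0.33. Of the actin and extracellular matrix genes, 9 of 31 tested were called higher and 9 lower. Each share was 29.0%, against 23.6% and 21.7% of all genes tested. Their median of -0.0069 changed sign with effective lengths or TMM factors. *Myl12a* (-0.70, SE 0.04) and *Vim* (-0.64, SE 0.05) were lower.

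Over all genes tested, 23.6% were called higher and 21.7% lower. By annotation class, of the snoRNAs, 16 of 34 tested were called higher and 4 lower (median 0.26). Of the processed pseudogenes, which may take reads from their parent genes, 54 of 225 tested were called higher and 13 lower (median 0.074). Of the lincRNAs, 20 of 123 tested were called higher and 25 lower (median -0.033), and of the provisional transcripts that GENCODE lists as TEC, 3 of 71 tested were called higher and 10 lower (median -0.19).

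To ask how far this state differed from that at Day 2, the interaction of treatment and day was tested over all 12 libraries, and 32.5% of genes were called. Of the bound genes over 2-fold lower at Day 4, 75 of 76 were already called lower at Day 2, against 14 of 34 unbound ones and 10.9% of all genes tested. The bound genes had also fallen further at Day 4, to a median of 25.9% of the EtOH mean against 44.7%, and the part of this depth in the Day 2 calls was not tested. The genes in these counts were chosen for their size at Day 4, which by itself favours the larger value on that day. Of all genes over 2-fold lower, 88 had a called interaction, and in each of these the Day 4 change was the more negative. Of the 62 genes over 2-fold higher, 29 were called higher at Day 2, against 8.99% of all genes tested, and 56 had a called interaction towards higher values. *Chac1* had an interaction of -2.20 (SE 0.22, DESeq2 adjusted p = 1.92e-20) on the log2 scale, *Slc7a1* one of -1.12 (SE 0.10, DESeq2 adjusted p = 1.68e-27) and *mt-Co1* one of -0.50 (SE 0.03, DESeq2 adjusted p = 7.89e-45). *Bmi1* (1.02, SE 0.16, DESeq2 adjusted p = 1.53e-08) and *Hexa* (0.91, SE 0.09, DESeq2 adjusted p = 3.26e-21) moved further up. *Ankrd13a*, already deep at Day 2, added -0.60 (SE 0.11, DESeq2 adjusted p = 3.32e-07). Some whole lists, picked after their values were seen, changed direction instead. Large-subunit cytosolic ribosomal proteins had a median of -0.083 at Day 2 against 0.17 at Day 4, with 44 of 47 interactions called. Histones went from -0.11 to 0.17 (39 of 49) and nuclear respiratory chain genes from -0.082 to 0.12 (49 of 76). The cholesterol list was already lower at Day 2 (median -0.24, 17 called lower), with 7 of 27 interactions called.

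**Figure D5:**
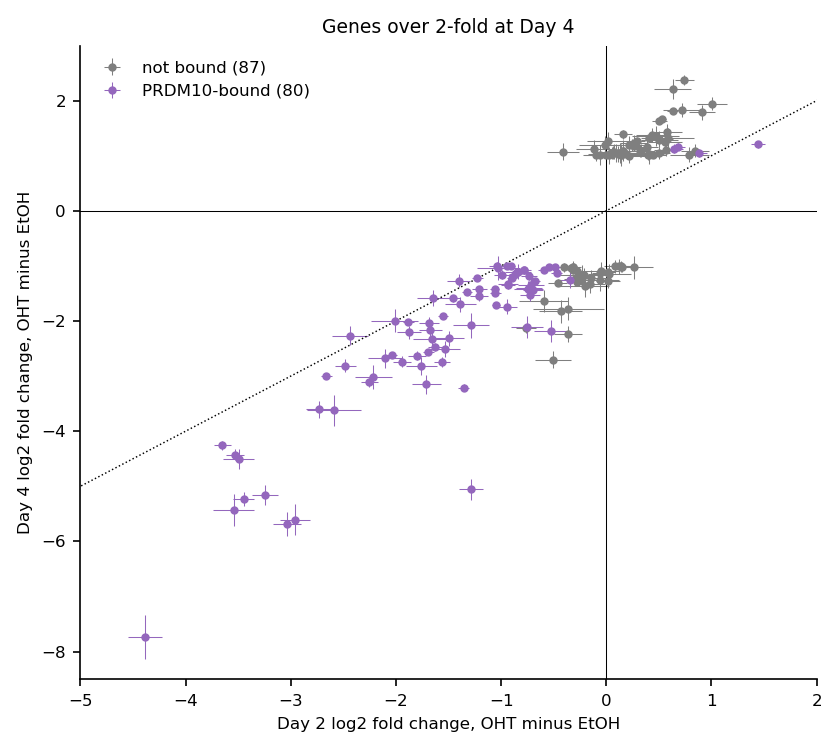
Day 4 against Day 2 log2 fold changes (libraries labelled OHT minus EtOH, error bars 1 SE) of the genes over 2-fold at Day 4, without *Exosc6*, *mt-Nd4l* and the 3 *Rnu3b* genes, whose counts are uncertain. The dotted line marks equal change. Of 80 bound and 87 unbound genes, all but 7 lie farther from 0 at Day 4, the day on which they were chosen, and bound genes (purple) reach below -3 on both days.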

How the data were processed

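RNA-seq with the TruSeq Stranded Total RNA kit was analysed in 6 of 12 libraries. The authors aligned reads with STAR 2.6.0c to GRCm38.p6 and deposited RSEM expected counts, which divide shared reads between genes, with effective lengths and posterior SDs. TPM values, deposited by the authors with them, were used for levels between genes. The authors' DESeq2 1.22.2 tables hold fold changes and p-values, and their symbols alone were used. Gene positions and classes are those of GENCODE vM21 on GRCm38 (the authors quantified against vM18), promoters those of RefSeq on GRCm38.p6, and the ChIP-seq list of bound genes was used as gene identifiers that the study annotated to PRDM10 peaks.

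Expected counts were rounded and fitted in DESeq2 1.42.0 (R 4.3.3) with its size factors, for the 6 Day 4 libraries alone. A gene was tested at a mean normalised count above 100 and called at a Benjamini-Hochberg adjusted p below 0.05. The interaction of treatment and day used all 12 libraries. The fit was tested on simulated data with 200 changed genes. No pair of libraries agreed within sampling noise.

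Named genes were *Prdm10*, the 12 most positive and 12 most negative called log2 fold changes with non-overlapping libraries, at least 50 normalised counts in 1 group and a posterior SD of at most 10% in the libraries of the higher group, and members of the 61 gene lists with the 3 largest called values. Others were named for their role, and some genes that these rules name are not reported here. Members, lists and rules were chosen with earlier results of these data known. Alternatives were edgeR 4.0.16, TMM, total-count and length-aware scaling, a replicate block, a joint fit of 12 libraries, other filters, and each library left out in turn.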

Additional observations from a re-analysis of the deposited data

Results flagged for a closer look

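The interaction of treatment and day, fitted in DESeq2 over all 12 libraries, was called for 3772 genes. In the values below it is the Day 4 log2 fold change minus that at Day 2, and every gene given passed at an adjusted p below 0.05. Apart from *Prdm10*, the genes were ranked by their Day 4 change, which by itself favours the larger value on that day. *Gng3* (-1.03, DESeq2 adjusted p = 0.0229) was not called, since its mean over the 12 libraries was not above 100. The rise of *Prdm10* counts was slightly smaller at Day 4 (-0.23). The losses were deeper at Day 4 for *Selenow* (-3.77), *Nmral1* (-3.35), *Galnt10* (-2.65), *Mpst* (-2.64), *Adgrv1* (-1.92), *Madd* (-1.88) and *Hap1* (-1.78). They deepened less for *Sri* (-1.01), *Ptov1* (-0.89), *Ephb2* (-0.87) and *Ankrd13a* (-0.60), of which *Ankrd13a* had the smallest step. The rises were larger at Day 4 for *Uap1l1* (1.63), *Patl2* (1.58), *Ephx2* (1.23), *Fabp3* (1.19), *Apoe* (1.14), *Renbp* (1.13) and *Gm48377* (1.11). They gained less for *P2rx4* (0.95), *Lrrc75a* (0.94), *Ahnak2* (0.88) and *Crispld1* (0.86). *Exosc6* had 7.86, a value as uncertain as its count.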

How the results depend on the processing

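Without the minimum mean, 134 genes were over 2-fold higher and 285 lower. When the null was set at 2-fold, the test left 16 higher and 61 lower. Leaving out 1 library at a time gave 2118 to 2650 genes called higher and 1968 to 2203 lower, 54 to 72 over 2-fold higher and 102 to 123 lower, and 3065 to 3579 interactions. For bound genes it gave 47 to 54 higher, 198 to 208 lower and 67 to 77 over 2-fold lower. edgeR called 3670 higher, 3146 lower and 5061 interactions. Under the other tool, scalings, blocks and filters tried, 50.2% to 54.0% of called genes were higher, and without 1 library 51.3% to 54.6%.

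Same-numbered libraries had deviations from their group means that correlated at 0.33, 0.051 and -0.13. Those with unlike numbers ran from -0.40 to 0.38. With 3 libraries per group, these correlations cannot settle whether the numbers pair the libraries. The replicate block called 2024 genes higher and 1868 lower, and 2424 interactions in place of 3772.

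Of 257 called genes checked, 238 kept call and direction under all 15 alternatives, 19 lost the call under at least 1 and no direction reversed. Of 61 list medians, 3 changed sign with scaling (autophagy, the BCL2 family, and actin and extracellular matrix) and 11 on leaving out a library (those 3 and core pluripotency, formative, primitive endoderm, germline, LIF, ubiquitin, BAF and interferon). A further 10 kept their sign but moved by over 1.5 times without at least 1 library. Without EtOH replicate 1 the medians were -0.027 for initiation factors, -0.034 for the spliceosome core, -0.013 for the tricarboxylic acid cycle and -0.015 for DNA repair. Without any 1 of the 6 libraries the median of FLCN and mTORC1 genes was -0.018 to -0.0065, and that of snoRNA hosts was -0.034 to -0.00036, where EtOH replicate 3 alone moved it less. Without OHT replicate 3 the medians were 0.020 for Polycomb, 0.061 for O-glycosylation, -0.0072 for hypoxia (-0.012 without EtOH replicate 1 and -0.0078 without EtOH replicate 3) and 0.049 for FGF-ERK (0.051 without OHT replicate 2). The cause of these shifts was not tested.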
